A study of Mus musculus with 8 samples.

Results

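H3K4me3 intervals that carried a promoter note in mouse neural stem cells with H3.3K27M and that met no H3K4me3 interval of the wild-type H3.3 cells numbered 2093. They were selected on the H3K4me3 intervals of both genotypes themselves, as K27M rows of the deposited lists with at least 1 promoter noted and not 1 bp of overlap with a wild-type row, chromosome 15 left out, so their H3K4me3 values are a description. That is 12.3% (11.8 to 12.8) of the 17026 K27M promoter intervals outside chromosome 15, and the whole K27M H3K4me3 list held 22820 intervals. Numbers in parentheses after a share are exact (Clopper-Pearson) 95% intervals that cover counting error only.

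The study set neuronal stem cells with stably transduced H3.3K27M, a histone H3.3 in which methionine replaces lysine 27, against the same kind of cells with stably transduced wild-type H3.3. Both lines are labelled p16Ink4a and p14Arf negative and grew in Neurobasal A with EGF and bFGF, and chromatin was fixed with 1% formaldehyde for 15 min. Each genotype gave 1 library for H3K4me3, H3K27ac, H3K27me3 and input. Since each group is a single library, differences could not be checked against replicates, p-values are not given, and genotype cannot be told apart from library. The total number of tags is unknown, so the depth of the lists could not be given. Promoter intervals of H3K4me3 were found at 24 of 29 neural stem and progenitor genes in K27M cells and 23 of 29 in wild-type cells, among them Nes, Sox2 and Vim. In K27M and in wild-type cells they were found at 1 and 2 of 18 microglial and blood cell genes, at 4 and 4 of 17 endothelial and mural genes, and at 10 and 8 of 24 fibroblast and mesenchymal genes. Among genes of other neural lineages, in the same order, they were found at 19 and 20 of 41 mature neuron genes. For astrocyte genes the counts were 6 and 6 of 11, and for oligodendrocyte genes 6 and 5 of 16. No promoter interval of H3K4me3 was found in either genotype at Gfap or Prom1, also used as neural stem cell markers, or at Fut4, Sox3 or Zbtb20.

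H3K4me3 is placed around transcription start sites, most broadly at promoters inside CpG islands, where unmethylated CG dinucleotides recruit the enzymes that write it. Polycomb repressive complex 2 writes H3K27me3 over many of the same islands at developmental genes that are silent, and a promoter with both marks is called bivalent. H3K27M inhibits that complex, and H3K27ac, which occupies the same lysine, marks promoters and enhancers in use.

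The K27M-only intervals were of 2 kinds that differed in place, density and surroundings, here called flanking and lone. A wild-type H3K4me3 interval lay within 1 kb of 1676 of them (80.1%, 78.3 to 81.8), which are called flanking and made up 9.84% of all K27M promoter intervals. For 319 (15.2%, 13.7 to 16.9) no wild-type interval lay within 5 kb, which are called lone and made up 1.87%, and 98 lay in between and are called intermediate. The starts of the genes with the densest lone intervals show the range of promoters concerned. Printed are the 250 bases before the start site from RefSeq (GRCm38.p6, the assembly of mm10), 5′ to 3′ along the gene, with every CG dinucleotide in capitals. Tmem200c at chr17:68836886-68837135 (plus strand), Slc25a28 at chr19:43674882-43675131 (minus strand), St3gal6 at chr16:58523427-58523676 (minus strand) and Dnajc15 at chr14:77874918-77875167 (minus strand) belong to intervals with a CpG island note, with the listed start inside the interval or, at Slc25a28, 181 bp from it. Luzp2 at chr7:54834995-54835244 (plus strand) belongs to an interval without one, and Foxl2 at chr9:98955357-98955606 (plus strand), an ovarian forkhead factor gene, had H3K4me3 and H3K27me3 in K27M cells and was added after its values were seen.
Tmem200c: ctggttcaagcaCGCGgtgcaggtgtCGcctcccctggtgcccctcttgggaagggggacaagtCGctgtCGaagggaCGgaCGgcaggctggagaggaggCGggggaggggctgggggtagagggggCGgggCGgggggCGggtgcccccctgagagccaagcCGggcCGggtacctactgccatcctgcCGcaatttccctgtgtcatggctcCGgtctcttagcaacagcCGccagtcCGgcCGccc
Slc25a28: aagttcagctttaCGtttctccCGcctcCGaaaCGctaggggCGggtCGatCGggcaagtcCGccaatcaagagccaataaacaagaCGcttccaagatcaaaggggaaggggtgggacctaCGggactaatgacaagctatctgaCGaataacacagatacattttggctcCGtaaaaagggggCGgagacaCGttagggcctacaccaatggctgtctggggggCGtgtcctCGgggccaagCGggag
St3gal6: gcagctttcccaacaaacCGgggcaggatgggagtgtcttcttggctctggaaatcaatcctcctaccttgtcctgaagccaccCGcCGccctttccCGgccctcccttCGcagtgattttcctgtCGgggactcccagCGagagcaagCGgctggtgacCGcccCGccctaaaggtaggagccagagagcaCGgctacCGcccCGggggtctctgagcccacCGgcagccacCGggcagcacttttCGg
Dnajc15: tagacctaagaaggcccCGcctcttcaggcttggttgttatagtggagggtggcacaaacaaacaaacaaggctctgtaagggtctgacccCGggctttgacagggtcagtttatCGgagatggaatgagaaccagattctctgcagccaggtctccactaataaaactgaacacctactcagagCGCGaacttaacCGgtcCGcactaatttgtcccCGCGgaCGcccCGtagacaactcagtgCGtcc
Luzp2: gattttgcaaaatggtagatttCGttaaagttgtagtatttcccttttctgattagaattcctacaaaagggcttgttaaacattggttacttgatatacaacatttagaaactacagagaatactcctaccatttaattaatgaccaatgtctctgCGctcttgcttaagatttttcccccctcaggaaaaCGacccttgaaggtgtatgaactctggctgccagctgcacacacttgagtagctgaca
Foxl2: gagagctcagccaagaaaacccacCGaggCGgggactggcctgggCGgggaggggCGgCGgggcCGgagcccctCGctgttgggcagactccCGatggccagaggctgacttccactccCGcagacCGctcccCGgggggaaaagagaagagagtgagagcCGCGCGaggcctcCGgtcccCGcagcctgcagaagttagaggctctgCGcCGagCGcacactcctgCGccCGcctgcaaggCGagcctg
These windows held 18, 17, 16, 12, 3 and 22 CG dinucleotides in the order printed. The first 4 and the last are CG-rich, and the Luzp2 window stands apart from them. Luc7l2 also ranked among the densest K27M-only intervals, but its interval is intermediate and its listed start lay 2310 bp away, so that promoter is not shown.

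Among the 85 listed promoters (300 bases around the start) whose start lay inside a lone interval, the median was 16 CG dinucleotides, against 22 in the 10581 whose start lay inside an interval shared with wild type and 7 over all 31915 listed promoters. At least 10 were found in 72.9% (62.2 to 82.0) of the lone, 90.2% (89.6 to 90.7) of the shared and 43.5% of all promoters. The letters TATAAA, searched on both strands, were in 5.88% (1.94 to 13.2) of the lone windows, 6.02% of the shared and 13.6% of all. GGGCGG on either strand, which itself holds a CG, was in 68.2% of the lone, 67.7% of the shared and 35.6% of all, and CCAAT in 38.8%, 38.5% and 37.5%. The lone promoters were thus between shared promoters and all promoters in CG content. They were near the shared ones in GGGCGG and in TATAAA, the latter on only 5 of 85 windows, while CCAAT was alike in all 3 sets. Only 22 of the 1676 flanking intervals (1.31%) had a listed start inside, against 79 of 319 (24.8%, 20.1 to 29.9) of the lone ones.

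Flanking intervals were short, sparse pieces of H3K4me3 at the edge of promoters that both genotypes marked. Their median length was 275.5 bp and their median mean density 20.8 tags per bin of about 32 nt, whereas the 14933 shared K27M promoter intervals had medians of 1799 bp and 82.4. The median distance to the wild-type interval was 264 bp. They flanked 1581 wild-type intervals, of which a K27M interval overlapped 1537 (97.2%) and 1190 (75.3%) held a CpG island. There the K27M extent had a median of 2262 bp and the wild-type interval 1933 bp, and the median mean densities were 94.7 in K27M and 69.1 in wild type. Over the 13945 other wild-type promoter intervals with a K27M interval these medians were 2085 bp in K27M and 1588 bp in wild type, and 84.0 in K27M and 60.7 in wild type. The flanked promoters were longer and denser than the others in both libraries, and the K27M extent was longer than the wild-type one at 70.3% of them and at 68.6% of the others.

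Where the neighbouring wild-type interval held listed starts of 1 strand only, 558 of 800 flanking intervals (69.8%, 66.4 to 72.9) lay on the transcribed side, downstream of the promoter. The mirror set, wild-type promoter intervals with no K27M overlap but a K27M interval within 1 kb, lay on that side in 183 of 350 cases (52.3%, 46.9 to 57.6). Flanking pieces were found at the housekeeping genes Eef2 (density 31.9, 155 bp from the wild-type interval), Gusb (26.2) and Chmp2a (27.3), and at Tubb3, the neuronal beta-tubulin gene (27.9). The densest of those on the gene lists lay at En1, a midbrain and hindbrain homeobox gene (39.6), and at Rb1, the retinoblastoma cell cycle inhibitor gene (37.0).

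**Figure D1:**
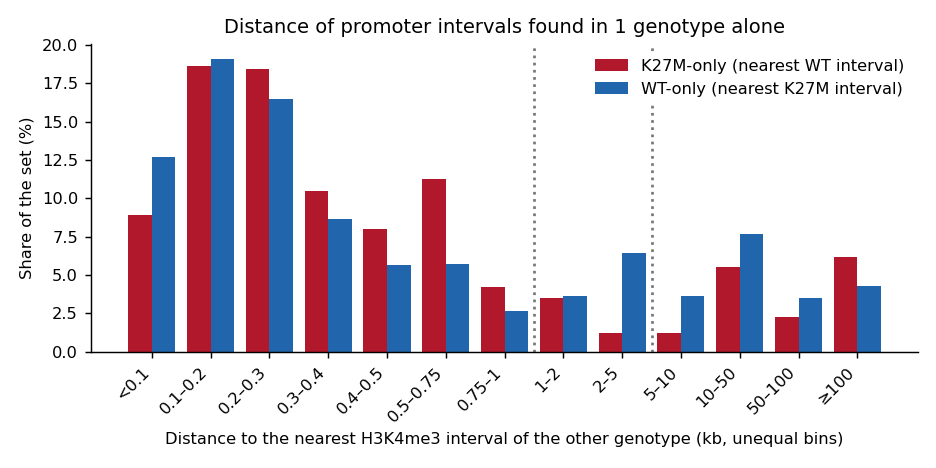
Distance from each promoter interval found in 1 genotype alone to the nearest H3K4me3 interval of the other genotype, as the share of the 2093 K27M-only and the 1136 WT-only intervals in bins of unequal width (kb); dotted lines mark 1 and 5 kb. Most of both sets lie within 1 kb, 80.1% of the K27M-only and 70.9% of the WT-only intervals.

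The rule rests on the lists alone, and its edge is fine. Just inside it, the intervals at Foxk1 and Mtif3 abutted a wild-type interval with 0 bp between, and those at Itsn1, Tmem11 and Atp13a1 were 1, 3 and 5 bp away, with densities of 18.9 to 26. Just outside it, the intervals at P2rx6, Synrg, Tom1l1, Cltb and Rbmx overlapped a wild-type interval by 1 to 5 bp, with densities of 17.9 to 28.6. The 2 ranges of density overlap.

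Most K27M-only intervals lay near the lower end of the K27M list. Their mean density had a median of 21.0 (quartiles 19.0 and 23.8, range 15.0 to 106), close to the 5th percentile of all K27M H3K4me3 intervals, 18.9. The 5th percentile of the wild-type list was 16.8, and its lowest listed density 13.1. A place that is absent from the wild-type list can therefore hold H3K4me3 below that level. In shared promoter intervals K27M density was a median of 1.27 times the wild-type density, so that a K27M density of 21.4 corresponds on that scale to the wild-type 5th percentile. At or above it were 952 of the 2093 intervals (45.5%), 698 flanking (41.6%) and 213 lone (66.8%), compared with 95.0% of the shared intervals. A larger share of flanking than of lone intervals thus falls below the wild-type 5th percentile after this scaling. Lone intervals had a median density of 23.5, a median highest bin of 29 and a median length of 373 bp.

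**Figure D2:**
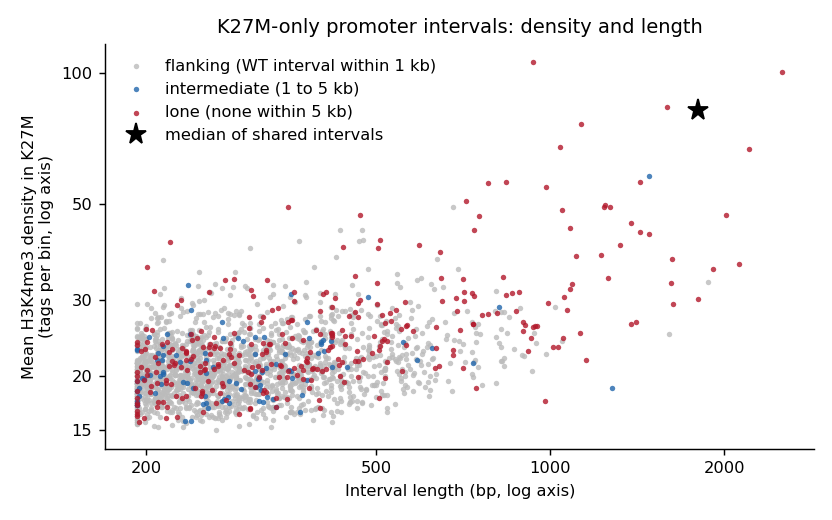
Mean H3K4me3 density in K27M cells (tags per bin, log axis) against interval length (bp, log axis) for the 2093 K27M-only promoter intervals, 1 point each, coloured by distance to the nearest wild-type interval; the star is the median of the shared intervals (82.4 at 1799 bp). Flanking points crowd at short length and low density, and of the 12 points above a density of 50 all but Luc7l2, an intermediate interval, are lone.

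CpG islands were noted at 327 K27M-only intervals (15.6%, 14.1 to 17.3), against 72.5% (71.8 to 73.2) of the shared ones and 65.5% of all K27M promoter intervals. Lone intervals held one in 146 of 319 cases (45.8%, 40.2 to 51.4) and flanking intervals in 158 of 1676 (9.43%, 8.07 to 10.9). At equal density the order of the sets changed. From 21.0 to 23.8 tags per bin, islands were noted at 38.0% of 79 lone, 7.83% of 447 flanking and 12.3% of 608 shared intervals. From 15.0 to 19.0 the shares were 31.8% of 44 lone, 5.36% of 448 flanking and 4.98% of 281 shared intervals. From 23.8 to 106 tags per bin, the widest range, the shares were 57.3% of 150 lone, 22.0% of 354 flanking and 71.8% of 10081 shared intervals. The ranges end at the highest density of the K27M-only intervals, 106, so denser shared intervals are in none of them. In the 3 lower ranges the lone share was the highest and its 95% interval did not meet that of the shared intervals.

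H3K27me3 was common at lone intervals. A K27M H3K27me3 interval overlapped 74 of 319 (23.2%, 18.7 to 28.2) and a wild-type one 157 (49.2%, 43.6 to 54.8). Over all K27M promoter intervals of H3K4me3 the mark was found at 5.13% in K27M and 14% in wild type. Flanking intervals had it in 3.88% (3.01 to 4.92) of cases in K27M and 12% (10.5 to 13.6) in wild type, and shared ones in 4.83% and 13.5%. Lone intervals had the higher share in each of the 4 density ranges compared. From 15.0 to 19.0 tags per bin, 34.1% of lone intervals had wild-type H3K27me3 against 10.3% of shared ones, and from 23.8 to 106 these shares were 58.7% and 15.8%. It was highest at islands, where 102 of 146 lone intervals (69.9%, 61.7 to 77.2) lay in wild-type H3K27me3 against 15.3% of shared intervals with an island note. Without one the shares were 31.8% (24.9 to 39.3) of the lone and 8.67% of the shared intervals. The K27M H3K27me3 list reached lower densities (5th percentile 2.02) than the wild-type list (3.54), and with an equal floor for both the K27M share of lone intervals was 13.8%.

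**Figure D3:**
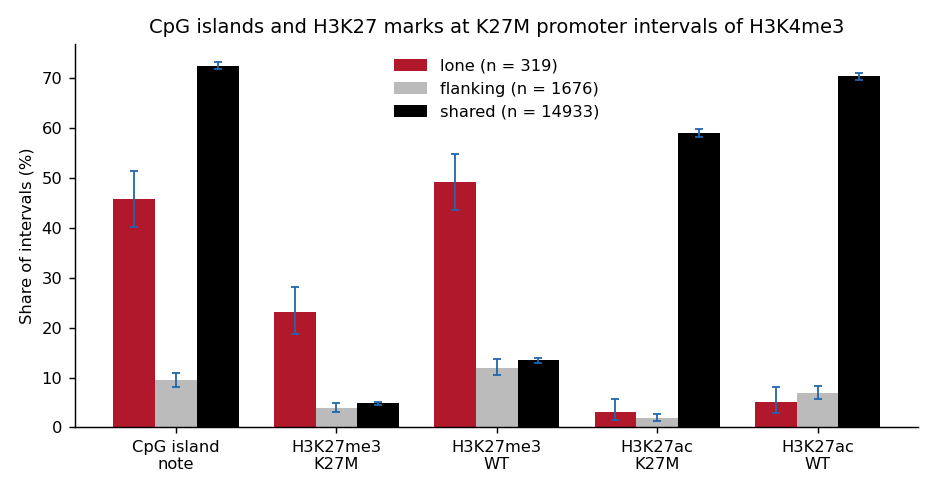
Share of lone (n = 319), flanking (n = 1676) and shared (n = 14933) K27M promoter intervals of H3K4me3 with a CpG island note or with an H3K27me3 or H3K27ac interval of each genotype; lines are exact 95% binomial intervals (counting error only). Lone intervals stand highest for H3K27me3 (23.2% in K27M, 49.2% in WT), and shared intervals stand highest for H3K27ac (59.1% and 70.4%).

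Many lone intervals had H3K27me3 in wild type and none listed in K27M. The mark was listed in both genotypes at 72, in wild type alone at 85 and in K27M alone at 2, and 160 had it in neither. By this count it was found again in K27M at 72 of 157 (45.9%, 37.9 to 54.0), against 64 of 201 (31.8%, 25.5 to 38.8) at flanking intervals, 33.1% (31.0 to 35.2) at shared intervals and 29.8% over all 6763 wild-type H3K27me3 intervals with a promoter. This share was highest at the densest wild-type H3K27me3 in all 3 sets. Between 5.50 and 7.15 tags per bin it was 16 of 42 (38.1%, 23.6 to 54.4) at lone and 17.2% (14.0 to 20.8) at shared intervals. In the other 3 density ranges the 95% intervals of lone and shared shares overlapped, as at the densest, with 29 of 39 (74.4%, 57.9 to 87.0) and 66.8% (62.5 to 70.9). At the 72 lone intervals marked in both, the median log2((K27M + 1)/(wild type + 1)) of H3K27me3 density was -0.96 (-1.14 to -0.88), against -1.11 (-1.16 to -1.05) at 664 shared intervals and -1.19 over all 4862 K27M H3K27me3 intervals that met a wild-type one. On this scale, with 1 added to each density, 33 of the 72 (45.8%) were at least 2-fold lower in K27M and 0 at least 2-fold higher, and over all such H3K27me3 intervals 63.6% were lower and 0.144% higher. The median H3K27me3 density was thus lower in K27M at these promoters too, by less than over the whole list, with 95% intervals that do not meet. The same held for the shared intervals, and the 95% intervals of the lone and shared medians overlap. An H3K27me3 interval that met more than 1 lone interval, as at Shc2, counts once for each. The called lengths behind these densities differ between the libraries.

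**Figure D4:**
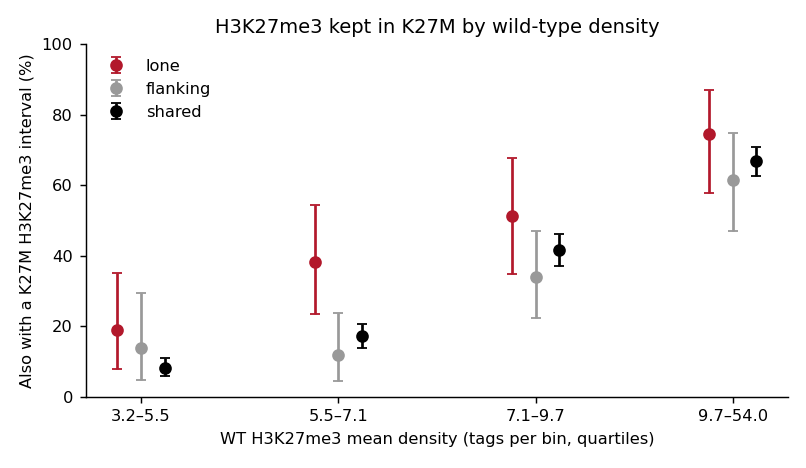
Share of H3K4me3 promoter intervals with wild-type H3K27me3 that also overlapped a K27M H3K27me3 interval (y axis, %), by quartile of the wild-type H3K27me3 density (x axis, tags per bin), for lone, flanking and shared intervals; lines are exact 95% binomial intervals. The densest quartile has the highest share in all 3 sets, and lone and shared points separate only between 5.50 and 7.15 (38.1% and 17.2%).

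H3K27ac was rare at K27M-only intervals of either kind. A K27M H3K27ac interval overlapped 45 of 2093 (2.15%, 1.57 to 2.87) and a wild-type one 149 (7.12%, 6.05 to 8.31), where 52.1% and 62.6% of all K27M promoter intervals of H3K4me3 had H3K27ac in K27M and in wild type. At lone intervals the counts were 10 of 319 in K27M (3.13%, 1.51 to 5.69) and 16 in wild type (5.02%, 2.89 to 8.02). Within 1 kb, K27M H3K27ac was near 4.08% (2.19 to 6.87) of lone, 27% (24.9 to 29.2) of flanking and 70.7% of shared intervals. Wild-type H3K27ac was near 8.15% of lone, 45.7% of flanking and 82.3% of shared intervals. Flanking intervals lie within 1 kb of a wild-type H3K4me3 interval by definition, so their difference from lone ones is not independent of that definition. Overlap also depends on length, with medians of 285 bp for K27M-only and 1799 bp for shared intervals. Shares at equal length were not compared. The K27M H3K27ac list began at higher densities (5th percentile 25.5) than the wild-type one (17), and with an equal floor the wild-type shares were 2.82% of all K27M-only and 2.19% of lone intervals, so the lower K27M share did not hold for lone intervals. The sparse shared intervals had little as well, with K27M H3K27ac at 4.63% of those from 15.0 to 19.0 tags per bin. From 23.8 to 106 tags per bin, lone intervals stayed at 7 of 150 (4.67%) and shared intervals reached 54.0%. At the 34 K27M-only intervals with H3K27ac in both genotypes the median log2 ratio of density was 0.12 (-0.12 to 0.23), which does not separate from 0. It turned to -0.17 (-0.63 to 0.08) by highest density. Of these, 0 were at least 2-fold higher and 1 at least 2-fold lower in K27M, beside 0.217% and 1.49% of all K27M H3K27ac intervals that met a wild-type one.

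Only 5 lone intervals (1.57%, 0.511 to 3.62) had H3K27ac in K27M alone, at St3gal6, Luzp2, Cox6a2, Klhl30 and Zfp446. The share at shared intervals was close to it, 1.21%. H3K27ac in wild type alone was listed at 11 lone intervals (3.45%) and at 12.5% of the shared ones. St3gal6, which encodes a sialyltransferase, had a K27M H3K4me3 density of 83.5 over 1595 bp, K27M H3K27ac of 26.2 and no listed wild-type H3K27ac. Its wild-type H3K27me3 interval of 6.67 had no K27M counterpart. Luzp2 had H3K4me3 of 56.2, K27M H3K27ac of 27.6 and wild-type H3K27me3 of 6.21, and its nearest wild-type H3K4me3 interval was 956639 bp away. The other 3 intervals lay within or beside the gene's span with no listed start within 2.5 kb. Cox6a2, a muscle form of a cytochrome oxidase subunit, had H3K4me3 of 30.6 and K27M H3K27ac of 31.4, and Zfp446 had 19 and 21.6. Klhl30 had H3K4me3 of 25.6 and K27M H3K27ac of 28.8, and lay in wild-type H3K27me3 of 5.68. As at St3gal6 and Luzp2, no K27M H3K27me3 was listed at Klhl30. All 5 H3K27ac densities lay near the lower end of the K27M list.

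A few of the densest lone intervals reached the median density of shared promoter intervals, 82.4. Most were far sparser, as the upper quartile of lone intervals, 28.4, lay below the lower quartile of shared ones, 44. Tmem200c had a mean density of 106 over 934 bp, and Slc25a28, which encodes a mitochondrial iron importer, had 101 over 2520 bp. Dnajc15, a mitochondrial co-chaperone gene, had 76.6 over 1129 bp, below the shared median. The highest bin at Slc25a28 was 293, above the upper quartile of shared intervals (274). The nearest wild-type H3K4me3 was 237872 bp from Tmem200c, 14469 bp from Slc25a28 and 660129 bp from Dnajc15. The H3K27 marks at these 3 genes had no common pattern. Tmem200c had H3K27me3 in wild type alone (4.43), Slc25a28 had H3K27ac in wild type alone (30.1), and Dnajc15 had none of the 4 lists. Over all lone intervals, 143 of 319 (44.8%, 39.3 to 50.5) overlapped none of these lists, against 80.9% of flanking and 20.4% of shared intervals.

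Further dense lone intervals lay at genes of varied roles. The intervals at Il7 and Sntg1 were assigned by the gene's span, as no start was listed within 2.5 kb. Starts of some genes were not used here, so these intervals may still lie at the gene's own start. Il7, a lymphocyte cytokine gene, had H3K4me3 of 67.7, with H3K27me3 of 2.93 in K27M and 6.24 in wild type. Sntg1, a syntrophin of neurons, had 66.9 over 2210 bp, with H3K27me3 of 5.92 in K27M and 8.10 in wild type. Spock3, which encodes the proteoglycan testican-3, had 55.7, with H3K27me3 of 6.30 in K27M and 12.5 in wild type. All 3 had both marks in K27M and H3K27me3 with no listed H3K4me3 in wild type. Lrrk1, a kinase gene, had 56.0, and Khdrbs2, an RNA-binding protein gene of the brain, had 54.6. Both had wild-type H3K27me3 (5.18 and 5.01) and none listed in K27M. Shc2, an adaptor gene of growth factor receptors, had 2 lone intervals (50.9 and 46.9) in H3K27me3 of 2.29 in K27M and 11.5 in wild type. The prostaglandin receptor genes Ptger3 (48.3) and Ptgfr (43.6) both had lone H3K4me3. Ptger3 lay in H3K27me3 of 4.87 in K27M and 10.7 in wild type, and Ptgfr in none. The sialyltransferase gene St6gal2 (45.1), the glycosyltransferase gene Galnt13 (47.2) and the tight junction gene Cldn1 (47.1) also stood among the densest. So did Adrb1, the beta-1 adrenergic receptor gene (40.1), and Cav2, a caveolin gene (41.2), neither of whose lone intervals overlapped an H3K27me3 interval.

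**Figure D5:**
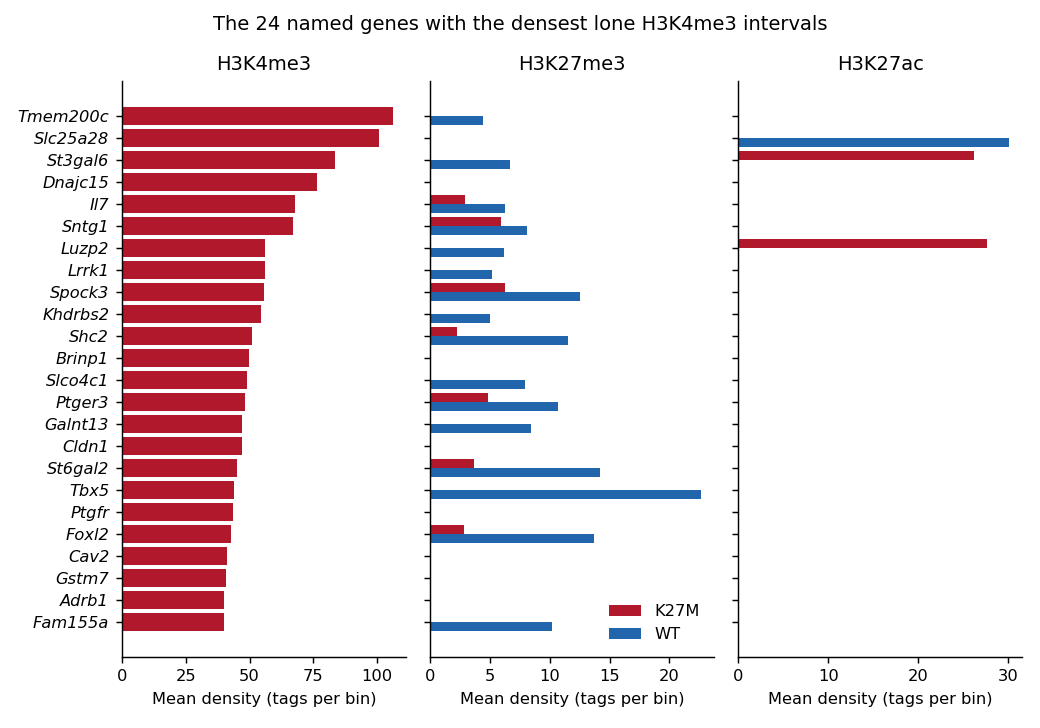
Mean density (tags per bin) at the 24 named genes with the densest lone H3K4me3 intervals: K27M H3K4me3 of the lone interval, and H3K27me3 and H3K27ac of K27M (red) and WT (blue) in the intervals of those marks that overlap it, where no bar means that none is listed. H3K4me3 runs from 106 at Tmem200c to 40.1 at Adrb1 and Fam155a, WT H3K27me3 is longest at Tbx5 (22.6), and H3K27ac is listed at 3 of the genes.

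At further lone intervals the H3K27me3 values differed widely. The intervals at Tbx5 and Cbln2 were assigned by the gene's span. Inside the annotated span of Tbx5, the T-box factor gene of heart and forelimb, lay 3 lone intervals with H3K4me3 densities of 44.0, 23.4 and 20.6, all in 1 wild-type H3K27me3 interval of 22.6 over 29599 bp, with no K27M H3K27me3 listed. Foxl2 had H3K4me3 of 42.7 over 1481 bp and H3K27me3 of 2.85 in K27M against 13.7 in wild type. Adcyap1, which encodes the neuropeptide PACAP, had H3K4me3 of 29.6 and H3K27me3 of 11.2 in K27M against 23.4 in wild type. Cbln2, a synaptic organiser gene, had more H3K27me3 in K27M, with H3K4me3 of 28.4 and H3K27me3 of 13.7 in K27M against 6.72 in wild type. Sytl4, which acts in granule exocytosis, had 1 of the 2 lone intervals with H3K27me3 in K27M alone (4.58 over 39799 bp). Between these genes the H3K27me3 values in K27M ran from none listed to denser than wild type.

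Counted by gene list, lone intervals were few. Over all genes with a K27M promoter interval 283 of 12000 (2.36%) had a lone one. Non-neural developmental regulators had 3 of 19, Tbx5 and Foxl2 among them, imprinted genes 2 of 20 (Gnas and Phlda2), and fibroblast and mesenchymal genes 2 of 10 (Thy1 and Col6a1). Single cases were Dlx5, a ventral forebrain homeobox gene (33.9), among 41 neural patterning genes, Sfrp1, a Wnt antagonist gene (34.1), among 37 signalling genes, and Myrf, a myelination factor gene (25.2), among 6 oligodendrocyte genes. Of 19 mature neuron genes 1 had a lone interval. Tdrd5 (23.2), a germ cell piRNA factor gene, was 1 of 3 germline genes, H2-K1 (18), an antigen presentation gene, 1 of 21 interferon and antigen genes, and Phf19 (33.3), a Polycomb accessory gene with a second lone interval of 19.3, 1 of 31 Polycomb and demethylase genes. Thy1, Sfrp1, Myrf, Gnas, Phlda2, Tdrd5 and H2-K1 lay in wild-type H3K27me3 (6.46 to 13.6), and Gnas, Phlda2 and Tdrd5 kept it in K27M (2.52 to 6.31). No lone interval was counted at 24 neural stem and progenitor genes, 42 glycolysis, TCA cycle and glutamine genes, 24 housekeeping genes, 17 cell cycle inhibitor and p53 genes, 9 oncofetal and pluripotency genes, 6 astrocyte genes, 4 endothelial and mural genes, 4 Hox genes or the 1 microglial and blood cell gene. The lists were not tested against the rate over all genes. Dlx5, Sfrp1, Myrf, Thy1 and Phf19 were assigned by span.

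With flanking and intermediate intervals included, 2043 of 12000 genes (17.0%) had a K27M-only interval. The shares were 7 of 42 glycolysis, TCA cycle and glutamine genes, 4 of 24 housekeeping genes, 5 of 31 Polycomb and demethylase genes, 7 of 41 neural patterning genes, 7 of 37 signalling genes and 4 of 21 interferon and antigen genes, all between 16.1% and 19.0%. Non-neural developmental regulators had 8 of 19 and neural stem and progenitor genes 1 of 24, a flanking piece at Msi2 (20.8). The remaining lists held 3 of 19 mature neuron, 1 of 6 oligodendrocyte, 3 of 10 fibroblast and mesenchymal and 2 of 20 imprinted genes. They also held 1 of 17 cell cycle inhibitor and p53, 2 of 3 germline, 1 of 4 Hox and 1 of 9 oncofetal and pluripotency genes. None was counted at the astrocyte, endothelial and mural, or microglial and blood cell genes. The glycolytic genes Aldoa (20.5), Ldha (16.9) and Ldhb (27.8) had flanking pieces. In the Igf2bp3 locus, an oncofetal RNA-binding protein gene, 3 intermediate intervals (21.8 to 26.7) lay in H3K27me3 of 16.9 in K27M and 15.4 in wild type.

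Some genes with a lone interval had wild-type H3K4me3 elsewhere over their span and 2.5 kb to each side, such as Gnas, which has several start sites, with 7 wild-type intervals, and Phf19 with 1. The 319 intervals fell into 282 loci when those within 5 kb were joined, and 250 loci held 1 interval, so neighbouring intervals at a locus such as Tbx5 are not independent.

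By chromosome the K27M-only share of promoter intervals ran from 9.26% on chromosome 12 to 15.4% (13.1 to 17.9) on chromosome 17, chromosome Y aside, where it was 0 of 4. Chromosome 15, which the rule leaves out, had 15.4% (12.8 to 18.2). Lone intervals made up 5.16% (3.51 to 7.29) of the promoter intervals of chromosome X and 1.76% (1.56 to 1.97) of those of the autosomes used, and 1.87% over both. On chromosome 15 they made up 4.04% (2.74 to 5.72). The X-linked lone intervals had CpG islands in 15 of 30 cases and wild-type H3K27me3 in 17 of 30 (56.7%, 37.4 to 74.5), against 45.3% and 48.4% on the autosomes. In the mirror set, lone wild-type-only intervals were 0.865% (0.281 to 2.01) of X and 1.32% of autosomal wild-type promoter intervals.

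Set against the K27M-only intervals, wild-type promoter intervals with no K27M H3K4me3 overlap were fewer and also mostly flanking. They numbered 1136 of 16616 (6.84%, 6.46 to 7.23), 805 of them (70.9%, 68.1 to 73.5) with a K27M interval within 1 kb and 217 lone. The lone K27M-only intervals differed from these 217 lone wild-type-only ones in what surrounded them. CpG islands were noted at 45.8% of the K27M-only and 29.0% (23.1 to 35.6) of the wild-type-only intervals, and wild-type H3K27me3 at 49.2% of the K27M-only and 31.8% (25.7 to 38.4) of the wild-type-only intervals. K27M H3K27me3 was at 23.2% (18.7 to 28.2) of the K27M-only and 16.1% (11.5 to 21.7) of the wild-type-only intervals, and these 95% intervals overlap. Read in the genotype that had the H3K4me3, the H3K27me3 share was 23.2% for the K27M-only and 31.8% for the wild-type-only intervals, and these 95% intervals overlap too. The shares come from different H3K27me3 lists, which met 5.13% (K27M) and 14% (wild type) of all K27M promoter intervals of H3K4me3. H3K27ac of the genotype that had the H3K4me3 was found at 3.13% (1.51 to 5.69) of the K27M-only and 33.6% (27.4 to 40.3) of the wild-type-only intervals. Read in the library of the other genotype, it was at 5.02% of the K27M-only and 14.7% (10.3 to 20.2) of the wild-type-only intervals. Their median H3K4me3 densities, each in its own library, were 23.5 and 20.9, and their highest 106 and 41.3. The 95% intervals of the K27M-only and wild-type-only sets do not meet for the CpG island note, wild-type H3K27me3 or H3K27ac of the same genotype.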

How the data were processed

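Libraries for H3K4me3, H3K27ac and H3K27me3 of K27M and wild-type cells, 1 each, were compared as interval lists. The tools named in the submitters' processing notes are BWA and SICER, and the build is mm10. Their versions, the caller of each mark, thresholds and any use of inputs were not given in the sources used here. All deposited densities are signal values, a mean and a highest tag density per bin, made by the authors with an unknown library scale. Depth is therefore unknown, and the inputs were not used here. CpG island, promoter and gene notes are the authors', and their promoter window is not given.

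Coordinates were read as inclusive, and distance is the number of bases between intervals. A gene was the RefSeq gene (GRCm38.p6) with a curated transcript and a listed start within 2.5 kb of the interval (1493 of 2093 intervals), else one whose span with a flank of 1 kb overlapped it (536). Starts on chromosome 18 and of some other genes were not used here, so those genes were assigned by span. Chromosome 15 genes were left out of the marker counts. Ratios used a pseudocount of 1. Shares have exact binomial and medians order-statistic intervals of 95% (SciPy 1.17.1, pandas 2.3.3). The overlap code was tested on simulated intervals. Named genes are the densest, longest and highest members, those densest in each other mark, those on the gene lists and those at the edge of the rule; predicted and olfactory genes were not named, and a few other genes are not reported here. The members, lists and distances were chosen with earlier results of these data known.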

Additional observations from a re-analysis of the deposited data

How the results depend on the processing

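No paired analysis was possible because each group has 1 library, and none could be left out. The 2093 K27M-only intervals became 417 when a wild-type interval within 1 kb counted as shared, 319 within 5 kb, 240 within 20 kb, 1075 from the median density of the members, 952 after scaling to the shared ratio with the wild-type 5th percentile as floor, and 136 with a RefSeq start inside in place of the promoter note. The 20 kb distance, the scaling and all settings for lone intervals were chosen after seeing the data. In this order of settings, the CpG island share was 40.5%, 45.8%, 51.2%, 22.6%, 24.4% and 56.6%, and it was 17.9% from the K27M 5th percentile. K27M H3K27me3 was at 20.6%, 23.2%, 27.1%, 8.84%, 9.45% and 22.8%, and wild-type H3K27me3 at 42.2%, 49.2%, 57.1%, 21.8%, 23.1% and 45.6%. K27M H3K27ac was at 3.12% (1 kb), 3.13% (5 kb), 2.94% (scaling) and 2.94% (RefSeq start), and wild-type H3K27ac at 5.02% (5 kb), 2.92% (20 kb), 8.93% (median density), 8.61% (scaling), 5.15% (RefSeq start) and 8.32% (K27M 5th percentile). With the other mark counted within 1 kb, wild-type H3K27me3 was at 20.1%, K27M H3K27ac at 22.5% and wild-type H3K27ac at 38.9%. With at least 50% of the interval covered, the H3K27ac shares were 1.53% in K27M and 5.59% in wild type. An equal density floor for both lists of a mark gave 4.35% for K27M H3K27me3 and 2.82% for wild-type H3K27ac. At lone intervals, wild-type H3K27me3 was 57.1% at 20 kb and 54.9% after scaling, K27M H3K27me3 13.8% with equal floors, and wild-type H3K27ac 8.15% within 1 kb and 2.19% with equal floors. The median H3K27ac ratio reversed to -0.17 by highest density. The cause of the changes other than the fewer intervals counted was not tested. The other 51 of 99 values stayed within the main 95% interval or, for counts, within 1.5 times.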
